A study of Mus musculus with 6 samples.

Results

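Sncg, Syn1, Syn2 and Gprin3 are genes best known from nerve cells, and all 4 had reads in fat from the groin (inguinal white adipose tissue) of mice. The rule named 5 mouse symbols, Sncg, Sncb, Syn1, Syn2 and Gprin3, matched to Ensembl gene identifiers. It found 4 of them among the 25894 genes of the table, all 4 above the filter on low values (a mean of at least 1), and Sncb was not analysed here. The genes were selected on their difference between the groups in these same libraries, so that difference is given as a description, with no test. The 6 libraries came from individual female mice, 3 per group. The fragmented, recovered mice were C57BL/6N, 15 weeks old by the series' text, and had their sleep fragmented for 8 weeks before 2 weeks of recovery. The 3 controls had the same strain label and the label control, with nothing further on their housing. Their age was not given. Tissue from both groups was taken after a 10 h fast. The comparison asks what differs in fat between these groups after recovery sleep. No library was taken before recovery, so lasting changes and changes that arose during recovery cannot be told apart.

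Synucleins are small proteins that bind curved lipid membranes. Gamma-synuclein (Sncg) is made in sensory and motor neurons and also in white adipocytes. Synapsins coat synaptic vesicles and tether them to the actin skeleton until phosphorylation releases them. The Gprin proteins, named as G protein-regulated inducers of neurite outgrowth, bind alpha subunits of the Gi and Go classes.

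Between 15610201 and 19703569 reads per library lay behind the values, which are read counts scaled by 1 factor per library. Limma called 0 of 22290 genes at an adjusted p of 0.05, 0% of those tested, with 1201 (5.39%) at an unadjusted p under 0.05. On reads recovered from the table, edgeR and DESeq2 also called 0, with 754 and 1186 at an unadjusted p under 0.05. Adipocyte genes were abundant in every library: 20 of 20 were measured, with summed values from 553483 to 963264 in fragmented, recovered mice and from 526975 to 782283 in controls. Lymphocyte markers differed widely between mice of the same group. The 16 B and plasma cell markers summed to 3574, 38368 and 1897 in fragmented, recovered mice 1, 2 and 3 and to 2217, 95676 and 24756 in controls 1, 2 and 3, with the antibody genes Igkc and Ighm the most abundant. The 14 skeletal muscle markers reached 102970 in fragmented, recovered 1 and 13568 in control 2, against 615 to 2798 in the other libraries, led by Acta1 and Myh4, which encode actin and myosin of the contractile fibre. Markers of macrophages (Lyz2 and Csf1r the most abundant), endothelium (Pecam1 and Cdh5) and progenitors (Col3a1 and Dcn) were measured in full, and their medians lay within 0.63 of the mean of the 6 mice on the log2 scale in every library. In whole tissue, fewer cells of a type and less RNA per cell cannot be told apart.

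The promoters of the 4 genes are shown because the known motifs in them differ from gene to gene. Each sequence is the 250 bases before the RefSeq start in GRCm38.p6, written on the gene's own strand, minus for Sncg, Syn1 and Gprin3 and plus for Syn2, which has 2 listed starts, the first of them shown. Capitals mark matches, on either strand, to a GC box (GGGCGG), an E-box (CACGTG), a cAMP response element (TGACGTCA) or the RE1 element, searched as TCAGCACC, any 2 bases and GGNCAG. No capitals overlap between motifs.

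Sncg: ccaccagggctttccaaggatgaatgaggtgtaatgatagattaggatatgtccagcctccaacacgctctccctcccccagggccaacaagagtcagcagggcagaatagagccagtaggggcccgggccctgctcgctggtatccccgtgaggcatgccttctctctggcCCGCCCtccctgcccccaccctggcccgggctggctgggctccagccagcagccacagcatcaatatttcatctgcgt

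Syn1: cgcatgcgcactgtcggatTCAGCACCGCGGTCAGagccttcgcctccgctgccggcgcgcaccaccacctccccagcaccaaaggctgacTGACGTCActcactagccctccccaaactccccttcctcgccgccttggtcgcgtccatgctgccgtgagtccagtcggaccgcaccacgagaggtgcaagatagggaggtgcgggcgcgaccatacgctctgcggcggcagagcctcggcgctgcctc

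Syn2: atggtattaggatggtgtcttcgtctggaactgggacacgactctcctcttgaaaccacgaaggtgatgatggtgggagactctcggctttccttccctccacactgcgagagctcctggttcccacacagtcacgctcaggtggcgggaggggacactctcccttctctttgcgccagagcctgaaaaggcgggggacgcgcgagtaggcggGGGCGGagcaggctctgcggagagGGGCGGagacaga

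Gprin3: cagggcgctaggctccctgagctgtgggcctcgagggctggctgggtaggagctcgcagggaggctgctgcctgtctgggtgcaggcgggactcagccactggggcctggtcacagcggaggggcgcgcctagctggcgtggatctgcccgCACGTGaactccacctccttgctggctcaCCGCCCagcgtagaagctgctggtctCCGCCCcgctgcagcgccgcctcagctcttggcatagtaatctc

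The RE1 element, the sequence bound by the repressor REST that keeps neuronal genes low outside the nervous system, matched in the Syn1 window, starting 231 bases before the start. It matched in 11 of 32851 promoter windows of that length, or 0.0335%. The Syn1 window also held a cAMP response element, found in 1.55% of windows. The E-box, the sequence read by clock and Myc family factors, matched in the Gprin3 window alone of these 4, and in 6.02% of all windows. GC boxes matched once in Sncg, at 2 places in Syn2 and at 2 in Gprin3, and in 32.7% of all windows. The nuclear receptor sequence AGGTCA was also searched, matched in none of the 4 windows and in 14% of all. GC content was 61.6% for Sncg, 68% for Syn1, 61.2% for Syn2 and 68.8% for Gprin3, against a median of 52.4% over all windows. These matches describe letters and were not tested against binding or the read counts.

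The 4 genes covered a wide range of levels, from Sncg at the top to Syn1 near the floor. Per kilobase of exon, averaged over the 6 mice, the normalised count was 2413 for Sncg, above 98.9% of all genes in the table. It was 105 for Gprin3, 70.3 for Syn2 and 6.30 for Syn1. The lowest Sncg library, at 349 per kb, lay above the highest Gprin3 library, at 215. Gprin3 (35.2 to 215 per kb) and Syn2 (32 to 120 per kb) overlapped across mice, whereas Syn2 and Syn1 (3.83 to 11.5 per kb) did not. Syn3, the third synapsin, had 1.61 per kb, and Gprin2 and Gprin1 had 3.60 and 2.15. From Syn1 down, each gene's range over mice overlapped that of the next gene down.

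**Figure D1:**
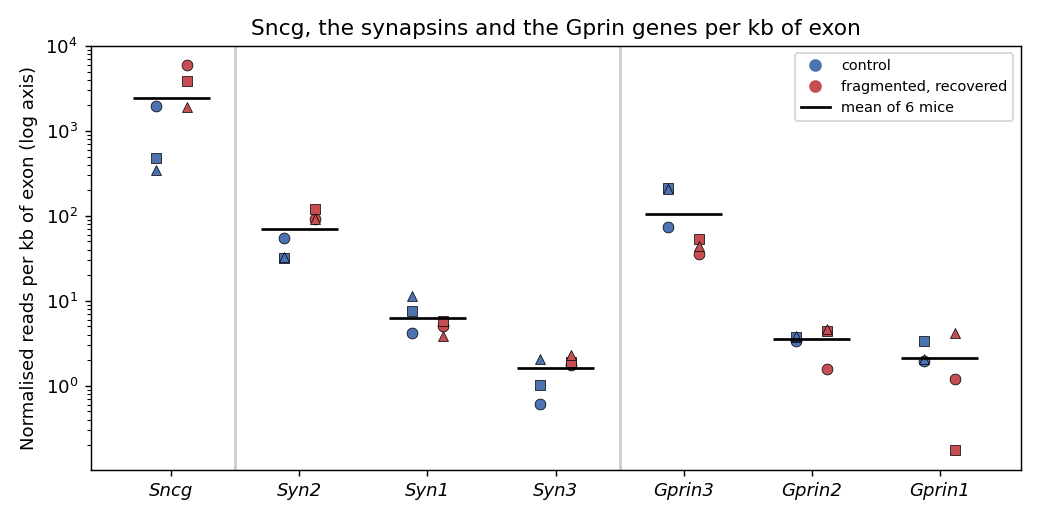
Normalised reads per kb of exon (log axis) for Sncg and the synapsin and Gprin genes in control (blue) and fragmented, recovered (red) mice. Each point is 1 mouse (circle, square and triangle for mice 1, 2 and 3) and lines are the mean of 6 mice, 2413 for Sncg, 70.3 for Syn2 and 105 for Gprin3; Syn2 and Gprin3 stand far above their relatives.

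Sncg had normalised counts of 5056, 3266 and 1632 in fragmented, recovered mice 1, 2 and 3, and 1672, 411.5 and 297.4 in controls 1, 2 and 3. The groups overlapped by a narrow margin, because control 1 stood just above fragmented, recovered 3. Controls 2 and 3 were the lowest, and the step between them and the next library was 3.97-fold. The means were 3318 ± 1713 (SD, n = 3) and 794 ± 763, which is 4.18-fold, and the log2 difference on the log2(value + 1) scale was 2.34 (SE 0.62). The spread was wide in both groups, with an SD of 51.6% of the mean in fragmented, recovered mice and 96.1% in controls. The highest mouse carried 17-fold the value of the lowest.

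Markers of other tissues moved partly with Sncg. The 20 mammary epithelium markers, all measured, summed to 43762 to 70605 in fragmented, recovered mice and to 69283, 26982 and 31750 in controls 1, 2 and 3. The 15 skin keratinocyte markers, all measured, summed to 3538 to 5983 and to 4871, 2109 and 1366. The most abundant of them were Prlr, the prolactin receptor, and Krt19, a keratin of ducts, and in skin Ly6d and Perp. Prlr did not follow Sncg. It had 7737, 11072 and 18341 in fragmented, recovered mice and 13681, 11347 and 14014 in controls, lowest in fragmented, recovered 1 and 2. Krt19 had 6285, 9968 and 9891 in fragmented, recovered mice and 10356, 1335 and 1743 in controls. Controls 2 and 3 were thus the lowest for Sncg, for Krt19 and for both summed lists, and their part in the result was not tested. Within each library, Sncg reads per read of the adiponectin gene Adipoq were 0.109, 0.144 and 0.0646 in fragmented, recovered mice and 0.0493, 0.0220 and 0.0166 in controls. Per read of Fabp4, the fatty acid carrier of adipocytes, they were 0.0242, 0.0262 and 0.0138 against 0.00889, 0.00989 and 0.00567. On both ratios, which do not depend on the scaling of the library, every fragmented, recovered mouse stood above every control. Sncg by itself overlapped, so this separation also rests on the levels of Adipoq and Fabp4. Sncg was picked for its difference and Adipoq was added after values were seen, so this is a description. Fabp4 was itself high in control 1, at 188052 against 41622 and 52486 in controls 2 and 3, which lowers the ratio there. The share of genes that such ratios would separate was not counted.

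Syn2, which encodes synapsin II, was the most abundant synapsin. Its normalised counts were 638.6, 843.5 and 643.8 in fragmented, recovered mice 1, 2 and 3 and 385.8, 224.9 and 230.6 in controls 1, 2 and 3. Every fragmented, recovered mouse exceeded every control, as in 5.02% of genes tested. The means were 709 ± 117 (SD, n = 3) and 280 ± 91.3, a 2.53-fold ratio, with a log2 difference of 1.37 (SE 0.30). Control 1 stood 1.67-fold above control 3, and the lowest fragmented, recovered mouse stood 1.66-fold above control 1.

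Syn1, which encodes synapsin I of mature neurons, was close to the lower limit of counting. It had 16, 25 and 14 reads in fragmented, recovered mice and 13, 22 and 34 in controls, or normalised counts of 16.59, 18.96 and 12.64 against 13.86, 24.87 and 37.88. The 95% Poisson interval, counting error only and in unscaled reads, was 9.15 to 26, 16.2 to 36.9 and 7.65 to 23.5 in fragmented, recovered mice. It was 6.92 to 22.2, 13.8 to 33.3 and 23.5 to 47.5 in controls. The groups overlapped, with means of 16.1 ± 3.19 (SD, n = 3) and 25.5 ± 12 and a log2 difference of -0.55 (SE 0.64). The Syn1 means leaned opposite to those of Syn2, by a difference smaller than its SE. Syn2 reads per Syn1 read were 38.5, 44.5 and 50.9 in fragmented, recovered mice and 27.8, 9.05 and 6.09 in controls, with no overlap. Because Syn2 was picked for its difference, this ratio describes the members and does not show a shift in Syn1. Syn3 had 21.77, 23.51 and 27.99 against 7.461, 12.43 and 25.62, with a difference of 0.81 (SE 0.67) that did not pass (limma adjusted p = 0.731).

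**Figure D2:**
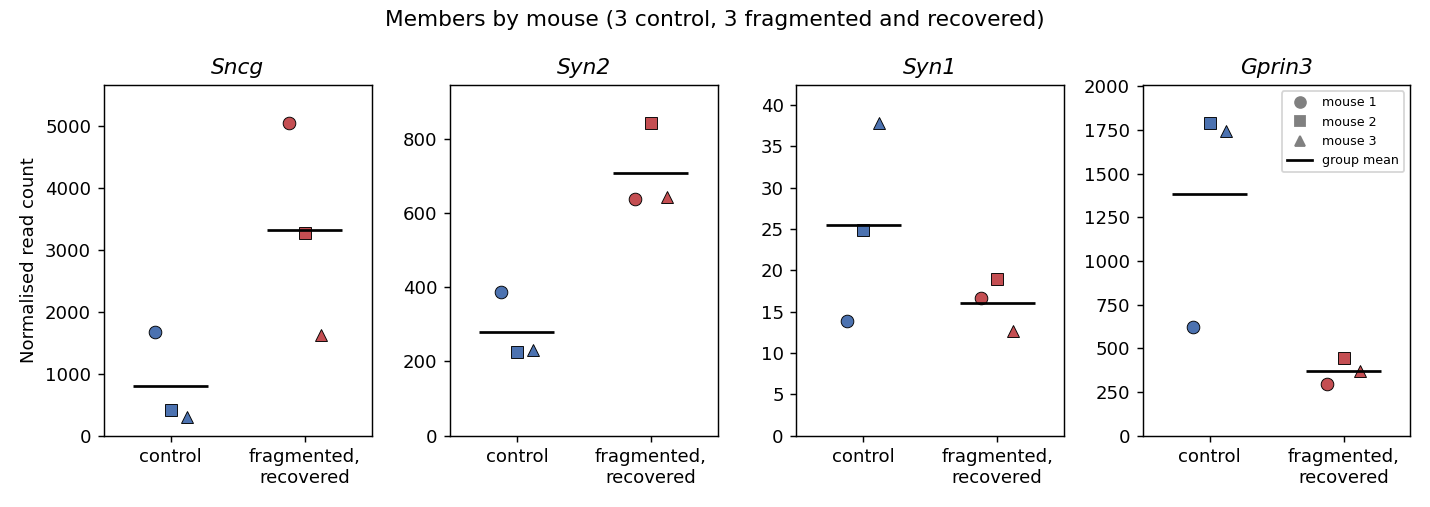
Normalised read count (linear axes from 0, 1 scale per gene) of Sncg, Syn2, Syn1 and Gprin3 in 3 control (blue) and 3 fragmented, recovered (red) mice. Points are mice 1, 2 and 3 and lines are group means; Syn2 and Gprin3 do not overlap between the groups, and control 1 lies between the groups or beside the fragmented, recovered mice in all 4 panels.

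Markers of neurons were few and low. Of 24 neuron markers, 21 were analysed, 16 had a mean under 10 and 6 had a mean under 1 (Ina, Nefm, Scg2, Elavl4, Nefl and Th), among them neurofilament genes and an enzyme of catecholamine synthesis. The summed level of the list was 674, 924 and 1232 in fragmented, recovered mice and 1543, 872 and 531 in controls, so it overlapped. Most of that sum was Scg3, a granule protein, and Map2, a microtubule protein of dendrites, and both overlapped between the groups. Counted gene by gene, more were higher than lower: of the 15 tested, 10 had a difference above 0 and 5 below, with a median log2 difference of 0.90, and 4 had every fragmented, recovered mouse above every control. Over all genes tested, 51.6% had a difference above 0, the median was 0.02 and 5.02% had every fragmented, recovered mouse above every control. Those shares are not from genes of like level, because the median value was 4.67 for the 15 and 113 over all genes tested. Gap43, among the 4, had 3.11, 11.4 and 5.42 against 2.13, 0 and 0. Its control mean of 0.711 did not itself reach the filter of 1, so these counts are a description. The median deviation of the list from the mean of the 6 mice was 0.19, 0.72 and 0.38 in fragmented, recovered mice and -0.11, -0.49 and -0.49 in controls, with no overlap. The 15 Schwann cell markers, all measured and led by the myelin genes Pmp22 and Mbp, did not overlap as a sum. They summed to 6985 to 9617 in fragmented, recovered mice and to 6308 to 6454 in controls. Their median deviation did overlap, at 0.58, 0.16 and 0.02 in fragmented, recovered mice and -0.45, -0.11 and 0.06 in controls. Of the 15, 1 had every fragmented, recovered mouse above every control. The part of both lists in the Syn2 and Syn1 values was not tested.

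Syn2 contains the gene Timp4, an inhibitor of matrix metalloproteinases, on the opposite strand, and Syn1 contains Timp1 in the same way. Exons of Syn2 and Timp4 share 90 bases in GENCODE M21, 1.28% of Syn2's exonic length, and exons of Syn1 and Timp1 share 0. Timp4, chosen after its position was seen, had 2567, 1126 and 1177 in fragmented, recovered mice and 1577, 1057 and 1325 in controls. It was highest in fragmented, recovered 1, the groups overlapped, and the log2 difference was 0.21 (SE 0.34, limma adjusted p = 0.850). The library highest in Timp4 was the lowest of the 3 fragmented, recovered mice in Syn2, but fragmented, recovered 3 stood only 1.01-fold above it. The part of Timp4 reads in the Syn2 values was not tested. Syn2 reads per Timp4 read were 0.249, 0.749 and 0.547 against 0.245, 0.213 and 0.174. Timp1 had 57.02, 31.86 and 29.80 against 42.63, 2.261 and 23.39, again with overlap (difference 1.36, SE 0.94, limma adjusted p = 0.701). Leaving out 1 mouse moved the Timp1 difference from 0.25, without control 2, to 2.12, without control 1.

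Gprin3 ran opposite to Sncg and Syn2. Its normalised counts were 293.4, 443.7 and 372.0 in fragmented, recovered mice 1, 2 and 3 and 622.4, 1792 and 1741 in controls 1, 2 and 3. All 3 fragmented, recovered mice lay under all controls, as in 3.58% of genes tested. The means were 370 ± 75.2 (SD, n = 3) and 1385 ± 661, which is 3.75-fold higher in controls, and the log2 difference was -1.77 (SE 0.41). Controls 2 and 3 differed by 1.03-fold and stood 2.80-fold above control 1. Control 1 stood 1.40-fold above the highest fragmented, recovered mouse.

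The relatives of Gprin3 had few reads, and their differences from Gprin3 were not tested. Gprin2 had 16.59, 47.03 and 48.76 against 35.17, 39.56 and 40.10, with a difference of -0.17 (SE 0.58) and overlap (limma adjusted p = 0.933). That direction turned to 0.32 without fragmented, recovered 1. Gprin1 rested on 1 to 20 reads per library, with 5.184, 0.7585 and 18.06 against 8.526, 14.69 and 8.912. Its difference of -0.95 (SE 0.96) did not pass (limma adjusted p = 0.764) and ran from -1.79 without fragmented, recovered 3 to -0.07 without fragmented, recovered 2.

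Lymphocyte markers were compared beside Gprin3 because controls 2 and 3, its highest libraries, were also high in them. The 18 T and NK cell markers, all measured and led by Tcf7 and Il7r, summed to 772, 9176 and 844 in fragmented, recovered mice and to 1269, 9426 and 3180 in controls. Fragmented, recovered 2 had 443.7 for Gprin3, and control 2, at a similar summed level of these markers, had 1792. Among the libraries low in B and plasma cell markers, control 1 had 622.4 and fragmented, recovered 1 and 3 had 293.4 and 372.0. Gprin3 reads per read of Cd3e, a subunit of the T cell receptor complex, were 10.9, 1.17 and 15.3 against 11.7, 5.72 and 14.9. With the B cell marker level as a covariate, the Gprin3 difference was -1.44, against -1.77 without it. Laid out the same way, Syn2 in the high libraries was 843.5 against 224.9 and 230.6, and in the low ones 638.6 and 643.8 against 385.8. The part of lymphocytes in the Gprin3 difference was not tested beyond these values.

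**Figure D3:**
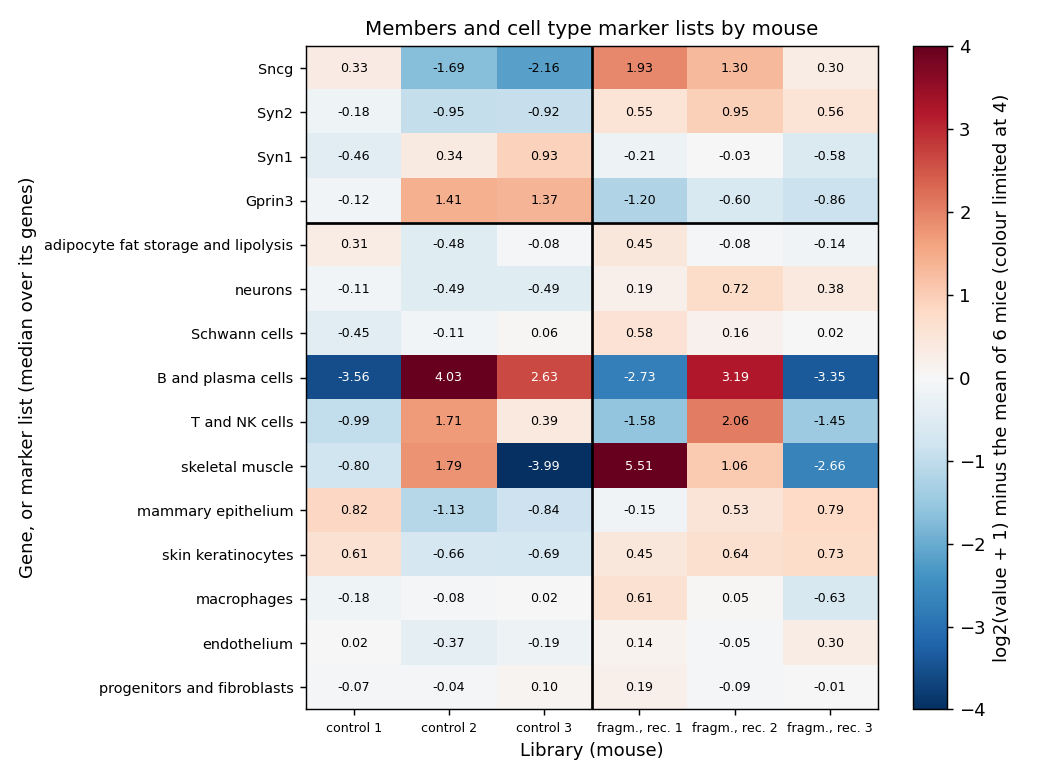
Deviation of log2(value + 1) from the mean of the 6 mice, for the 4 genes (top) and as the median over each marker list (bottom), 1 column per mouse. Gprin3 is at 1.41 and 1.37 in controls 2 and 3 and at -0.60 in fragmented, recovered 2, whereas B and plasma cell markers are at 4.03, 2.63 and 3.19 in those mice.

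Ratios between the genes were also taken within each library. Syn2 reads per Gprin3 read were 2.18, 1.90 and 1.73 in fragmented, recovered mice and 0.620, 0.126 and 0.132 in controls. Sncg reads per Gprin3 read were 17.2, 7.36 and 4.39 against 2.69, 0.230 and 0.171. Neither ratio overlapped, and both take no part of the library scaling. Because each pairs genes picked for opposite differences, this is a description of the members. Sncg reads per Syn2 read, at 7.92, 3.87 and 2.53 against 4.33, 1.83 and 1.29, did overlap.

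**Figure D4:**
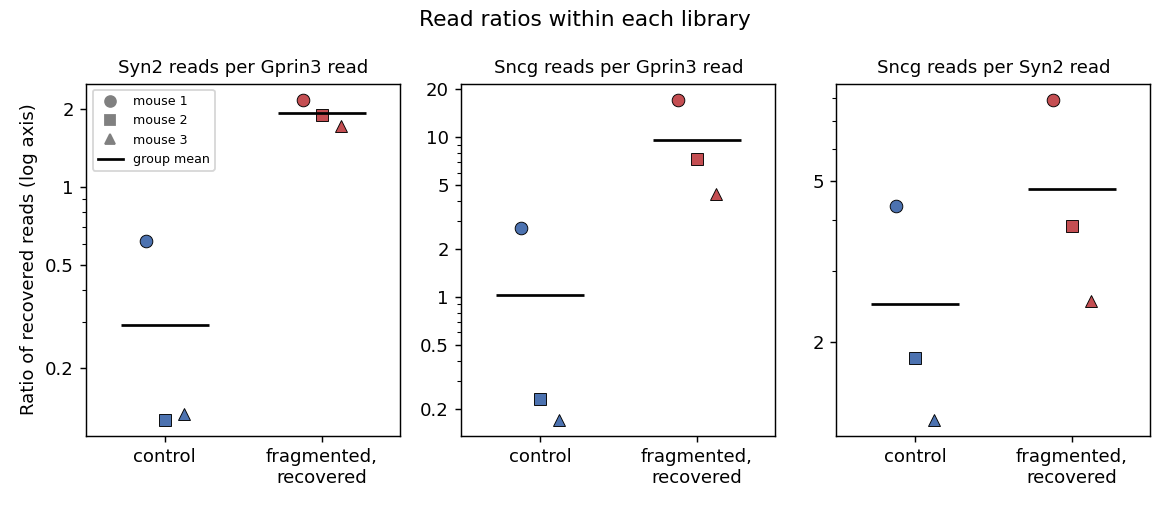
Ratio of recovered reads within each library (log axes) for Syn2 over Gprin3, Sncg over Gprin3 and Sncg over Syn2 in control (blue) and fragmented, recovered (red) mice, with group means as lines. The lowest fragmented, recovered mouse is at 1.73 and the highest control at 0.620 for Syn2 over Gprin3, whereas the ratio of Sncg to Syn2 overlaps.

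The size of the differences changed with the mice and the settings used, and so did the count of genes called over the whole table. Without control 1, limma called 844 genes (3.79%), and the differences were 3.10 for Sncg, 1.62 for Syn2, -0.91 for Syn1 and -2.27 for Gprin3. With sample quality weights in limma-voom, 1023 genes (6.34%) were called. When trends on GC content and length were removed per library and control 1 was left out, 51 genes (0.229%) were called, and the differences were 2.34 for Sncg, 1.66 for Syn2, -1.52 for Syn1 and -1.65 for Gprin3. The longest transcript of Gprin3 had a GC content of 41.7%, and those of Syn2, Sncg and Syn1 had 51.6%, 56.6% and 57.9%. Across genes, deviations from the mean of the 6 mice followed GC content with a Spearman's rho of -0.27 in controls 2 and 3 and of 0.13 to 0.37 elsewhere, a description, since genes are not independent. The part of GC content in the differences was not tested beyond these fits. With all 6 mice and the trends removed, the differences were 1.81 for Sncg, 1.35 for Syn2, -0.99 for Syn1 and -1.35 for Gprin3. Without fragmented, recovered 1 and control 2, the libraries highest in muscle markers, Sncg had 1.71, Syn2 1.30 and Gprin3 -1.36.

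**Figure D5:**
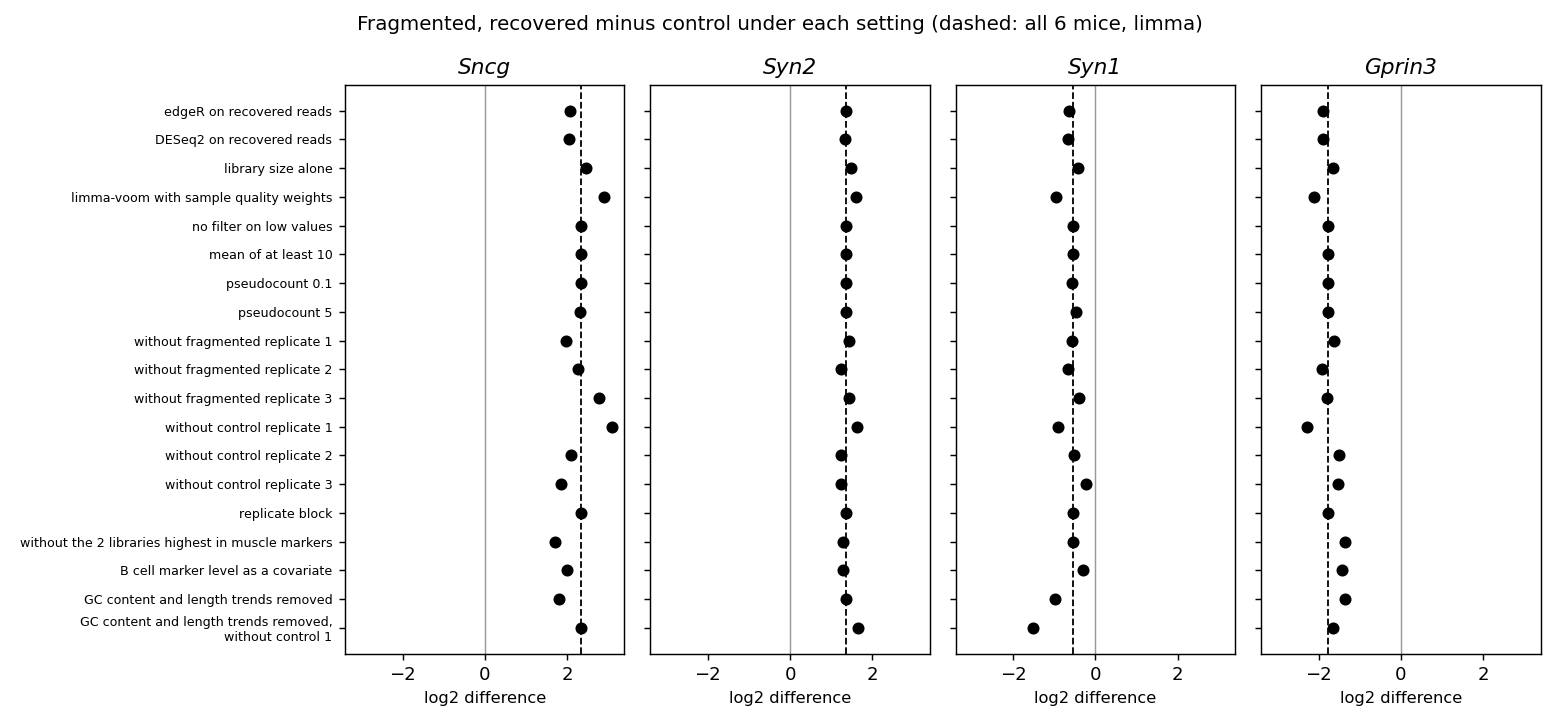
Log2 difference of the 4 genes, fragmented, recovered minus control, under 19 other settings (rows), with the value from all 6 mice by limma as a dashed line. Points are log2 differences with no test; Sncg ran from 1.71 to 3.10, Syn2 from 1.23 to 1.66, Syn1 from -1.52 to -0.22 and Gprin3 from -2.27 to -1.35.

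The proteins that work with synapsins and synucleins at vesicles were read from the same fit. Of 35 synaptic vesicle genes, 31 were tested and 0 were called. Of these, 21 had a difference above 0 and 10 below, with a median log2 difference of 0.23 against 0.02 over all genes, and 1 had an unadjusted p under 0.05. That gene was Slc18a2, the vesicular monoamine transporter, with 48.7, 57.6 and 81.3 in fragmented, recovered mice and 148, 168 and 150 in controls. All fragmented, recovered mice lay under all controls, as in 3.58% of genes tested, and the difference of -1.33 did not pass (limma adjusted p = 0.697). Stx1a, a syntaxin of the presynaptic membrane, had 34.2, 91.0 and 64.1 against 32, 28.3 and 12.3, a difference of 1.35. The most abundant genes of the list were Synj1, a lipid phosphatase of vesicle recycling, at 610 ± 140 (SD, n = 3) against 788 ± 262, and Dnm1, a membrane-cutting GTPase, at 417 ± 93.3 against 402 ± 79.9. The Dnm1 difference of 0.05 turned to -0.01 with limma-voom and quality weights.

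General exocytosis genes, which carry the insulin-responsive transporter Glut4 to the surface of fat cells, had a median of -0.19, with 7 of 24 above 0, 17 below and 0 called. Vamp2, a SNARE of both synaptic and Glut4 vesicles, had 1048, 1139 and 1261 in fragmented, recovered mice and 932, 725 and 500 in controls. Every fragmented, recovered mouse exceeded every control, as in 5.02% of genes tested, and its difference of 0.72 did not pass (limma adjusted p = 0.697). Lnpep, an aminopeptidase that travels with Glut4, had 2748, 3816 and 4345 against 3320, 9649 and 11042, a difference of -0.99. Control 1 overlapped the other group for Lnpep, as it did for Sncg. Without control 1, Lnpep passed at -1.53, and it did not pass, at -0.74, when GC content and length trends were removed as well. Sort1, a sorting receptor of the same vesicles, was the most abundant at 7919 ± 1103 (SD, n = 3) against 10204 ± 2799.

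Kinases and phosphatases that act on synapsins had a median of -0.16, with 7 of 16 above 0, 9 below and 0 called. The median turned to 0.03 with the B cell marker level as a covariate. Prkar2b, a regulatory subunit of protein kinase A in fat, had 12935 ± 1515 (SD, n = 3) against 17137 ± 5016, and Ppp2ca, a catalytic subunit of protein phosphatase 2A, had 3893 ± 788 against 4577 ± 327. Ppp3cb, a calcineurin subunit, had 1612, 1393 and 1545 against 1599, 3584 and 3638, a difference of -0.86. Mapk3, which encodes the kinase ERK1, had 2675, 2338 and 2396 against 2687, 971 and 954, a difference of 0.86. In both genes control 1 stood with the fragmented, recovered mice, neither passed with all 6 mice, and both passed without control 1, at -1.25 and 1.36. When GC content and length trends were removed as well, neither passed, at -0.52 and 0.64.

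Partners of synucleins had a median of 0.29, with 12 of 16 above 0, 4 below and 0 called. Park7, an oxidative stress protein linked to Parkinson's disease, had 1817, 1280 and 1238 against 1550, 388 and 377, a difference of 1.22. Bag3, a co-chaperone of selective autophagy, had 1125, 869 and 1416 against 884, 362 and 393, a difference of 1.15. Neither passed (limma adjusted p = 0.697), and without control 1 both did, at 1.89 and 1.56. When GC content and length trends were removed as well, neither did, at 1.45 and 0.95. The most abundant were Hspa8, a chaperone, at 28158 ± 9085 (SD, n = 3) against 23224 ± 4842, and Ctsd, a lysosomal protease, at 18212 ± 3304 against 14652 ± 7765.

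Partners of Gprin proteins, Gi and Go subunits and neurite growth genes, had a median of -0.13, with 5 of 14 above 0, 9 below and 0 called. Gpsm2, a guide of Gi subunits in cell polarity, had 160, 162 and 132 against 209, 258 and 226, a difference of -0.61 (limma adjusted p = 0.697). All fragmented, recovered mice lay under all controls for Gpsm2, as in 3.58% of genes tested. Gap43, a growth cone protein, had 3.11, 11.4 and 5.42 against 2.13, 0 and 0, too few reads for a ratio. Cdc42, a GTPase of the actin skeleton, had 7011 ± 1309 (SD, n = 3) against 9964 ± 1909. Gnai2, the most abundant Gi subunit of the list, had 5837 ± 501 against 6045 ± 769, and its difference of -0.05 turned to 0.07 with library size alone as the scaling.

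Fat storage and lipolysis genes, the setting in which gamma-synuclein is made, had a median of 0.10, with 13 of 20 above 0, 7 below and 0 called. The median turned to -0.18 without the libraries highest in muscle markers, to -0.10 with GC content and length trends removed, to -0.03 without fragmented, recovered 1 and to -0.01 without control 2. Lpl, lipoprotein lipase, had 155518 ± 41662 (SD, n = 3) against 229442 ± 43935. All fragmented, recovered mice lay under all controls, as in 3.58% of genes tested. The margin was narrow, with 182692 in fragmented, recovered 3 and 183246 in control 1. Fabp4 had 150626 ± 50267 against 94053 ± 81586, and control 1, at 188052, again stood apart from controls 2 and 3, at 41622 and 52486. Lipe, hormone-sensitive lipase, had 17889 ± 2473 against 10764 ± 6944 and passed without control 1, at 1.40, but not, at 1.15, when GC content and length trends were removed as well. Gpam, which starts triglyceride synthesis, had 4270 ± 800 against 6327 ± 2480. None of these 4 passed with all 6 mice in limma. Among the named genes of these lists, limma-voom with sample quality weights called Slc18a2, Vamp2, Lnpep, Ppp3cb, Mapk3, Bag3, Park7 and Lipe (adjusted p from 0.0451 to 0.0488). That setting called 1023 of 16141 genes, or 6.34%. Each of the named genes it called had been named for a small unadjusted p in these same libraries, so the calls are not separate support.

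The genes most like each member were found by the root mean square difference of their centred log2 values over the 6 libraries, among 16157 genes with a mean of at least 10. For Sncg they were Gm10132 (0.30), Rpl38-ps2 (0.31) and Gm10709 (0.33), so even the nearest gene was 0.30 away. Rpl38-ps2 is a ribosomal protein pseudogene whose reads could be shared with its parent gene, which makes its values uncertain. For Syn2 they were Alk (0.13), Rita1 (0.14) and 3830417A13Rik (0.15), of which Rita1 had 70.5, 98.6 and 79.5 in fragmented, recovered mice and 50.1, 32.8 and 26.7 in controls. For Gprin3 they were Mastl (0.24), Dennd1b (0.26) and Klra4 (0.29). Dennd1b, the most abundant of these, had 379, 530 and 462 against 476, 2112 and 1765, and its control 1 fell inside the range of the other group where that of Gprin3 did not. For Syn1 they were Gm36936 (0.07), Cd200r4 (0.09) and Cdk15 (0.12), all at 139 or less in every library.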

How the data were processed

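RNA-seq of inguinal fat from 6 mice was used, 3 per group, grouped by sample title. The authors deposited 1 signal value per gene and library. Per the submitters' processing notes, HISAT2 2.0.5, featureCounts 1.5.0-p3, CASAVA and build mm8 were named, with no roles given. The scaling step is not given in the sources used here. Division by the smallest nonzero value of a column returned whole reads, within 0.02, for 100% of values. Symbols came from an identifier table (33 unmatched). Exon lengths and GC content came from GENCODE M21 (GRCm38), known for 99.87% of genes tested. Because that build differs from mm8, no coordinates are given, and promoter sequences are RefSeq's.

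Limma 3.58.1 (R 4.3.3) with an intensity trend was fitted across all genes on log2(value + 1) for 22290 genes with a mean of at least 1, two-sided, with Benjamini-Hochberg adjustment and a threshold of 0.05. It was checked on simulated counts with the same dispersion for every gene. They do not copy the wide differences between mice of a group seen here. The recovered reads were tested with edgeR 4.0.16 and with DESeq2 1.42.0. The members, gene lists and alternatives were chosen with earlier results of these data known. Named list genes were the 2 with the highest mean and the 2 with the smallest unadjusted p per list, and for marker lists only the 2 with the highest mean. The other synapsin and Gprin genes were named with their values, 1 item is not reported here, and for likeness the 3 nearest genes. Timp4, Timp1, Adipoq and Cd3e were added after values were seen, and so were neuron markers with a mean under 1. Limma's p-values set the difference between the groups against the spread between mice within a group, moderated across genes.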

Additional observations from a re-analysis of the deposited data

How the results depend on the processing

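Each value was recomputed under 19 settings. The count of 0 genes called held in 16 of them. It became 1023 (699 higher, 324 lower) in limma-voom with quality weights and 844 (563 higher, 281 lower) without control 1, so leaving out 1 mouse gave 0 to 844, and 51 when trends on GC content and length were removed without control 1. The cause was not tested. All 4 members kept their direction under all 19, which was in part fixed in advance. The genes were selected on their difference, and Syn2 and Gprin3, with no overlap, cannot turn when 1 mouse is left out. The changed filters and the replicate block leave the differences of the members as they were. Leaving out 1 mouse gave 1.85 to 3.10 for Sncg, 1.23 to 1.62 for Syn2, -0.91 to -0.22 for Syn1 and -2.27 to -1.51 for Gprin3. Sncg moved by over 1.5-fold without control 1 and, to 1.71, without the 2 libraries highest in muscle markers. Syn1 did so, to -1.52, with trends removed and control 1 left out. The median over all genes was 0.02, and 0.14 with library size alone.

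Same-numbered mice deviated from their group means with correlations across genes of 0.177, 0.393 and 0.042. Mice with different numbers had correlations from -0.356 to 0.208. The labels name no pairing, and the numbers were not taken as pairs. Whether they pair the mice was not tested. With the replicate block 0 genes were called and no call changed. The block raised the genes at an unadjusted p under 0.05 from 1201 to 2676. It lowered the smallest limma adjusted p from 0.697 to 0.0705. Fragmented, recovered 3 correlated best with control 1 (0.208).

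These directions turned. Dnm1 had -0.01 (limma-voom), -0.13 (without fragmented, recovered 3), -0.07 (without control 2), -0.01 (without the muscle-rich libraries), -0.01 (B cell covariate), -0.25 (trends removed) and -0.37 (also without control 1). Gnai2 had 0.07 (library size alone), 0.03 (without fragmented, recovered 3; also the B cell covariate) and 0.04 (without control 2). Ppp2ca had 0.04 with trends removed and 0.20 also without control 1, and Ctsd had -0.02 with trends removed. Without the muscle-rich libraries Hspa8 had -0.03, Gprin2 0.34, Timp4 -0.33 and Timp1 -0.04, and leaving out 1 mouse gave -0.43 to 0.32 for Gprin2, -0.18 to 0.42 for Timp4 and -0.14 to 0.04 for Gnai2. With a mean of at least 50 required for likeness, 2 of 3 genes were shared for Sncg and Gprin3 and 1 of 3 for Syn2, and Syn1 had no value. Counting limits Syn1, Syn3 and Gprin1.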
